A study of Homo sapiens with 4 samples.

Results

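The transcripts of 10 genes of the YAP, TEAD and LATS pathway were examined in maps of RNA bound by HNRNPC and PABPC4. The genes were YAP1, WWTR1, TEAD1, TEAD4, LATS1, LATS2, CCN1, CCN2, ANKRD1 and AMOTL2. Peaks were taken by the NCBI Gene ID that the peak lists give, and each position was counted once. These genes held 28 of the 9107 HNRNPC peaks and 133 of the 63507 PABPC4 peaks, 161 positions in all. The lists together held 13328 gene IDs.

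The maps were made by cross-linking and immunoprecipitation (CLIP), in which cells are irradiated with ultraviolet light, a protein is pulled down with the RNA that became attached to it, and the fragments of that RNA are sequenced as tags. All samples came from MDA-MB-231, a cell line of human breast cancer, with no treatment other than the light (400 mJ/cm2 at 254 nm). There were 2 samples for HNRNPC, a mainly nuclear protein that prefers U-rich RNA, and 2 for PABPC4, a poly(A)-binding protein. The labels gave irCLIP for HNRNPC. PABPC4 was mapped by PAPERCLIP, in which reverse transcription starts from the poly(A) tail, so that its peaks are used to locate mRNA 3′ ends. The authors merged the samples of a protein before calling peaks, which left 1 list per protein, so replicate error could not be computed and no difference was tested. Peak height counts the unique tags at the summit of a peak, over both samples. It was not scaled to depth, which is unknown here, or to expression. More transcript and more binding therefore cannot be told apart in a height, and an order of heights between genes is not an order of affinity. Intervals are 95% Wilson intervals and cover counting error only.

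In this pathway the kinases LATS1 and LATS2 phosphorylate YAP1 and WWTR1 (also called TAZ), which keeps these transcriptional co-activators out of the nucleus. When they are not phosphorylated, YAP1 and WWTR1 enter the nucleus and bind DNA through the TEAD transcription factors. CCN1 (formerly CYR61), CCN2 (formerly CTGF), ANKRD1 and AMOTL2 are classical target genes, and AMOTL2, a member of the angiomotin family, also restrains YAP1. The question for each gene was where along its transcript each protein had been mapped, and whether the PABPC4 peaks lay where an mRNA would be cleaved and polyadenylated.

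Sequences at the peaks that the results turn on are given first, read from hg38 on the transcript strand, 5′ to 3′, with T for U. The first set shows the poly(A) signal, AATAAA or ATTAAA, in capitals in the last 40 nt of PABPC4 peaks in 3′ UTRs. It covers the 7 genes that had such a signal, with both CCN1 sites because they differed in height.
WWTR1, chr3:149517230-149517259, minus strand: aaaAATAAAgacaattgaacttccacttgg
TEAD1, chr11:12944712-12944741, plus strand: AATAAAgaaaatgaaagtgtgggtcacctt
TEAD4, chr12:3040641-3040670, plus strand: ccaAATAAAcccaagatgctgtgtattttc
CCN1 proximal, chr1:85583682-85583711, plus strand: tttAATAAAgaaatatttacctaatatctg
CCN1 distal, chr1:85583927-85583956, plus strand: cacAATAAAgattctgaagctaaatttgtg
CCN2, chr6:131948175-131948204, minus strand: gaaAATAAAgtgtatattttttctataaag
ANKRD1, chr10:90912092-90912121, minus strand: catAATAAAggcaatcaaactctaaacctc
AMOTL2, chr3:134355857-134355886, minus strand: ataATTAAAagtgatgtctttgcacaggtg
AMOTL2 was the gene of this set whose signal was ATTAAA, and the other sites had AATAAA.

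The second set shows A-rich stretches within 50 nt downstream of PABPC4 peaks, with runs of A in capitals. A stretch counted as A-rich where it had either 6 consecutive A or at least 7 A among 10 nt. These stretches are shown because a primer that anneals to poly(A) can also anneal to A encoded in the genome, and whether this gave any peak was not tested. The LATS2 stretch lies in the 3′ UTR, the ANKRD1 stretch just past the 3′ UTR, and the others in introns.
LATS2, chr13:20974408-20974437, minus strand: tAAAAAAAAAAAAAgataacactctgctca
ANKRD1, chr10:90912043-90912072, minus strand: ggtggaaatgtcctatgtgAAAAAAAAAgc
YAP1 intron 2, chr11:102139226-102139255, plus strand: cttAAAAAAAAAAAAAgtccatggtgactc
LATS1 intron 3, chr6:149690202-149690231, minus strand: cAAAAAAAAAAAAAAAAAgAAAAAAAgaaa

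The third set shows T runs (U in the RNA) of 5 or more in capitals at HNRNPC peaks, the kind of sequence that HNRNPC is known to bind.
TEAD1, chr11:12714964-12714993, plus strand: ttcaacatacgaTTTTTTTgagggggagac
LATS2, chr13:21034821-21034850, minus strand: tagcggatgccTTTTTTTTcctaagagttc
YAP1, chr11:102202157-102202186, plus strand: ttattattaTTTTTTTTTTTTgagatggag
WWTR1, chr3:149649914-149649943, minus strand: cagaaTTTTTTTTTTTTTTTTTTTTTgaga
The fourth set shows GTGTCA in capitals within 15 nt of the 3′ end of HNRNPC peaks. It is shown because many of the taller peaks shared this word. In the whole lists, 37.9% of HNRNPC peaks and 0.472% of PABPC4 peaks had it there. Whether binding or library preparation gave the word was not tested, so it is not read here as a bound sequence.
TEAD1 intron 5, chr11:12876563-12876592, plus strand: agatGTGTCAgtcaggcaggcaagacgtct
TEAD1 intron 2, chr11:12715041-12715070, plus strand: tGTGTCAggcactgccctctaggaatgtag
TEAD4, chr12:2983096-2983125, plus strand: gtacttaGTGTCAggtccagaagaaaatct
LATS2, chr13:21034696-21034725, minus strand: ggccccagGTGTCAgaagcagacaagcact
AMOTL2, chr3:134368160-134368189, minus strand: attagaaGTGTCAgggtgcattttttaaga

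HNRNPC peaks were found in 6 of the 10 genes, namely TEAD1, TEAD4, LATS2, WWTR1, YAP1 and AMOTL2. Among all protein-coding genes, 19.0% had 1 or more. The 6 genes were between 20.13 and 270.3 kb long, and the 3 targets without a peak, CCN1, CCN2 and ANKRD1, were between 3.197 and 8.992 kb. LATS1, at 59.95 kb, also had none. Protein-coding genes with an HNRNPC peak had a median length of 63.67 kb, against 24.1 kb over all protein-coding genes, so length moved with the presence of a peak and its part was not tested. All 6 also had PABPC4 peaks, as did 97.8% of all protein-coding genes with an HNRNPC peak. No HNRNPC peak of the 10 genes lay in a 3′ UTR, where 1.98% of protein-coding genes had one. A count of 0 of 28 peaks allows a share of up to 10.7%, and the share in the whole list was 4.97%, so the absence was not distinguishable at this number of peaks.

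**Figure D1:**
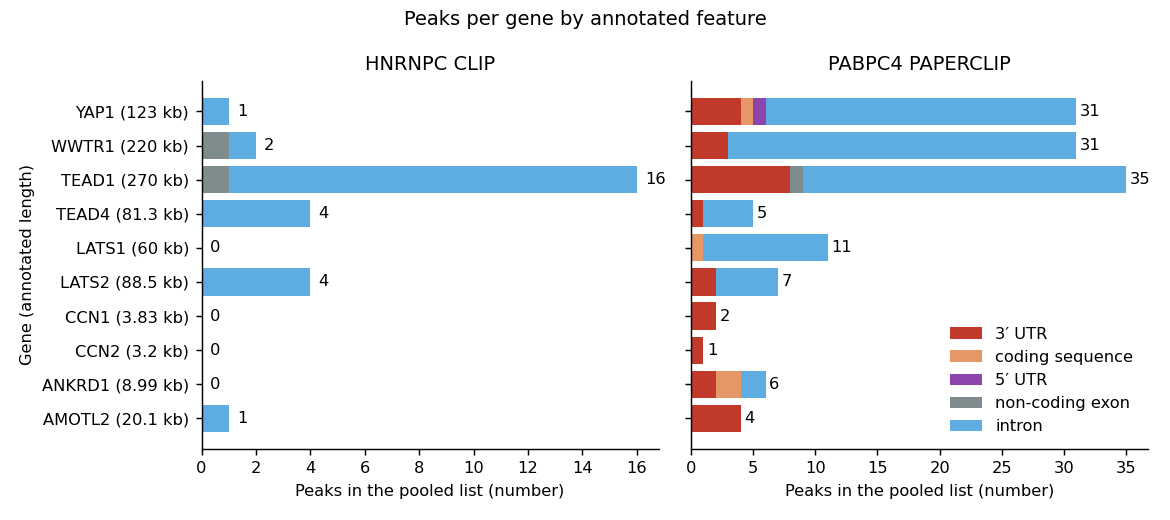
Number of peaks per gene (horizontal axis) in the HNRNPC list (left) and the PABPC4 list (right), coloured by annotated feature, with the annotated gene length beside each name. TEAD1 held 16 of the 28 HNRNPC peaks, and TEAD1, YAP1 and WWTR1 held 35, 31 and 31 of the 133 PABPC4 peaks.

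Introns held 26 of the 28 HNRNPC peaks, or 92.9% (77.4 to 98%), against 85.5% in the whole list. The remaining 2 lay in exons of non-coding transcripts inside an intron of the main transcript. One was a peak of 20 tags in intron 4 of TEAD1, and the other a peak of 8 tags in WWTR1-IT1, a non-coding transcript in intron 2 of WWTR1. The reads of WWTR1 and WWTR1-IT1 cannot be told apart there, since both are on the same strand. The peaks lay deep in the introns, at a median of 7737 nt from the nearest exon, and 24 of 28 were over 1000 nt away. Their median height was 19.5 tags, against 11 in the whole list, and their median width was 120 nt, against 101 nt.

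TEAD1, which encodes a DNA-binding partner of YAP1 and WWTR1, had 16 HNRNPC peaks, and 0.199% of protein-coding genes had at least that many. Over its 270.3 kb this was 5.92 peaks per 100 kb, at the 76.3 percentile of genes with a peak, while the count itself was at the 99 percentile. Most of the TEAD1 peaks had GUGUCA at the 3′ end, as described below, so both values depend on these peaks. TEAD1 held 526 of the 729 tags summed over the HNRNPC peaks of the 10 genes, or 72.2%. Its tallest peaks were 85 tags at chr11:12713690-12713850 in intron 2, 85 tags at chr11:12876435-12876577 in intron 5 and 80 tags at chr11:12714858-12715055 in intron 2. The other 13 lay between 11 and 35 tags. The peaks were not spread evenly, with 5 in intron 2 (88.6 kb), 4 in intron 3 (97.8 kb), 1 in intron 4 (2.52 kb) and 6 in intron 5 (14.8 kb). No HNRNPC peak lay in introns 6 to 12, of which intron 10 (22.8 kb) held 4 PABPC4 peaks.

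TEAD4, a second TEAD factor, had 4 HNRNPC peaks of 14, 12, 22 and 16 tags, with 3 in intron 2 and the last in intron 10. The tallest was at chr12:2983014-2983110. LATS2, a kinase that phosphorylates YAP1 and WWTR1, had 4 peaks, all in intron 2, of which the one at chr13:21034711-21034821 reached 47 tags and the others 9, 10 and 11 tags. Per length, TEAD4 and LATS2 were close to TEAD1, with 4.92 and 4.52 peaks per 100 kb. The co-activators were far more sparsely covered. WWTR1 had 2 peaks, of 21 tags at chr3:149619354-149619443 and of 8 tags at chr3:149649850-149649934, or 0.964 per 100 kb. YAP1 had 1 peak of 10 tags at chr11:102202189-102202306 in intron 4, or 0.813 per 100 kb. AMOTL2 had 1 peak of 23 tags at chr3:134368175-134368302 in intron 2. The median gene with a peak had 2.609 per 100 kb, so the TEAD genes, LATS2 and AMOTL2 lay above it and both co-activators below it. AMOTL2 is short enough that any single peak places it above this median, so its place there says little. Leaving out TEAD1 left 12 HNRNPC peaks in the other genes.

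**Figure D2:**
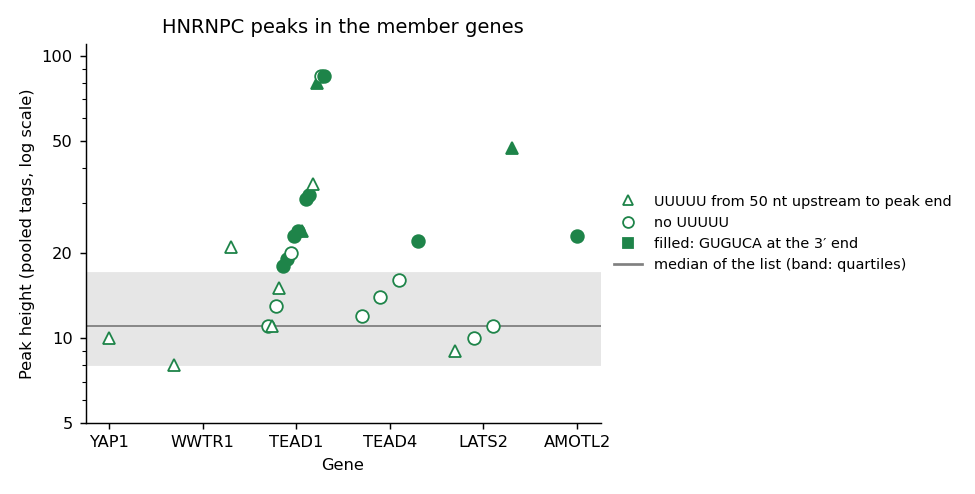
Height of each HNRNPC peak in pooled tags (log scale) by gene, with the median and quartiles of the whole list as a line and a band. Triangles have UUUUU between 50 nt upstream and the peak end, filled symbols have GUGUCA at the 3′ end, and all 3 peaks of 80 or more tags are in TEAD1.

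A run of UUUUU was found between 50 nt upstream of the peak and its 3′ end in 10 of 28 HNRNPC peaks, or 35.7% (20.7 to 54.2%), against 39.7% of the whole list. The longest runs shown above belonged to low peaks, of 8 tags in WWTR1 and 10 tags in YAP1. The word GUGUCA lay within 15 nt of the 3′ end in 12 of 28 peaks, or 42.9% (26.5 to 60.9%), against 37.9% of the whole list. Of these 12 peaks, 9 were in TEAD1 and 1 each in TEAD4, LATS2 and AMOTL2. They included the tallest peaks of TEAD4 and LATS2 and the only peak of AMOTL2. The TEAD1 peak of 85 tags in intron 2 had neither word, and the peaks of 80 tags in TEAD1, 24 tags in TEAD1 (chr11:12795450-12795581) and 47 tags in LATS2 had both. With the GUGUCA peaks left out, 16 HNRNPC peaks stayed in the 10 genes, and most of those lost were in TEAD1. Among PABPC4 peaks in 3′ UTRs, 0 of 27 had GUGUCA at the 3′ end, which allows a share of up to 11.1%, and 0.634% of the whole list had it.

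PABPC4 peaks were found in 10 of 10 genes, where 59.2% of protein-coding genes had one. Shares of protein-coding genes include any that are not expressed in these cells, and the part of expression was not tested. In 9 of 10 genes a peak lay in the 3′ UTR, against 48.8% of protein-coding genes. The exception was LATS1, whose 3′ UTR is 3579 nt long. The numbers ran from 35 in TEAD1 and 31 each in YAP1 and WWTR1 to 11 in LATS1, 7 in LATS2, 6 in ANKRD1, 5 in TEAD4, 4 in AMOTL2, 2 in CCN1 and 1 in CCN2. Of the 133 peaks, 27 lay in 3′ UTRs, or 20.3% (14.3 to 27.9%), against 29.8% of the list. Introns held 100, or 75.2% (67.2 to 81.8%), against 60.2%. Without YAP1, WWTR1 and TEAD1, the genes with most intron peaks, the 3′ UTR share was 33.3%. Coding sequence held 4 peaks, a 5′ UTR 1 and a non-coding exon 1.

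By its tallest 3′ UTR peak, each of the 4 target genes stood above the median gene, as did TEAD1, WWTR1, YAP1 and, by 1 tag, LATS2. Each height is given with its percentile among all genes with a PABPC4 3′ UTR peak, by the tallest peak of a gene, where the median gene reached 73 tags. ANKRD1, a nuclear ankyrin-repeat protein, had a peak of 1335 tags (98.9 percentile) that ended 3 nt past the only annotated end. CCN1, a secreted matricellular protein, had one of 1108 tags (98.6). CCN2, a relative of CCN1, had a single peak of 267 tags (88.4) that ended 3 nt before the only annotated end. AMOTL2 had 4 peaks of 155, 24, 188 and 60 tags, the tallest at the 81.6 percentile. Among the regulators, TEAD1 reached 771 tags (97.6) and WWTR1 511 tags (95.5). YAP1 with 96 tags (60.7) and LATS2 with 74 tags (50.6) lay near the median gene, and TEAD4 with 51 tags (37.3) below it.

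**Figure D3:**
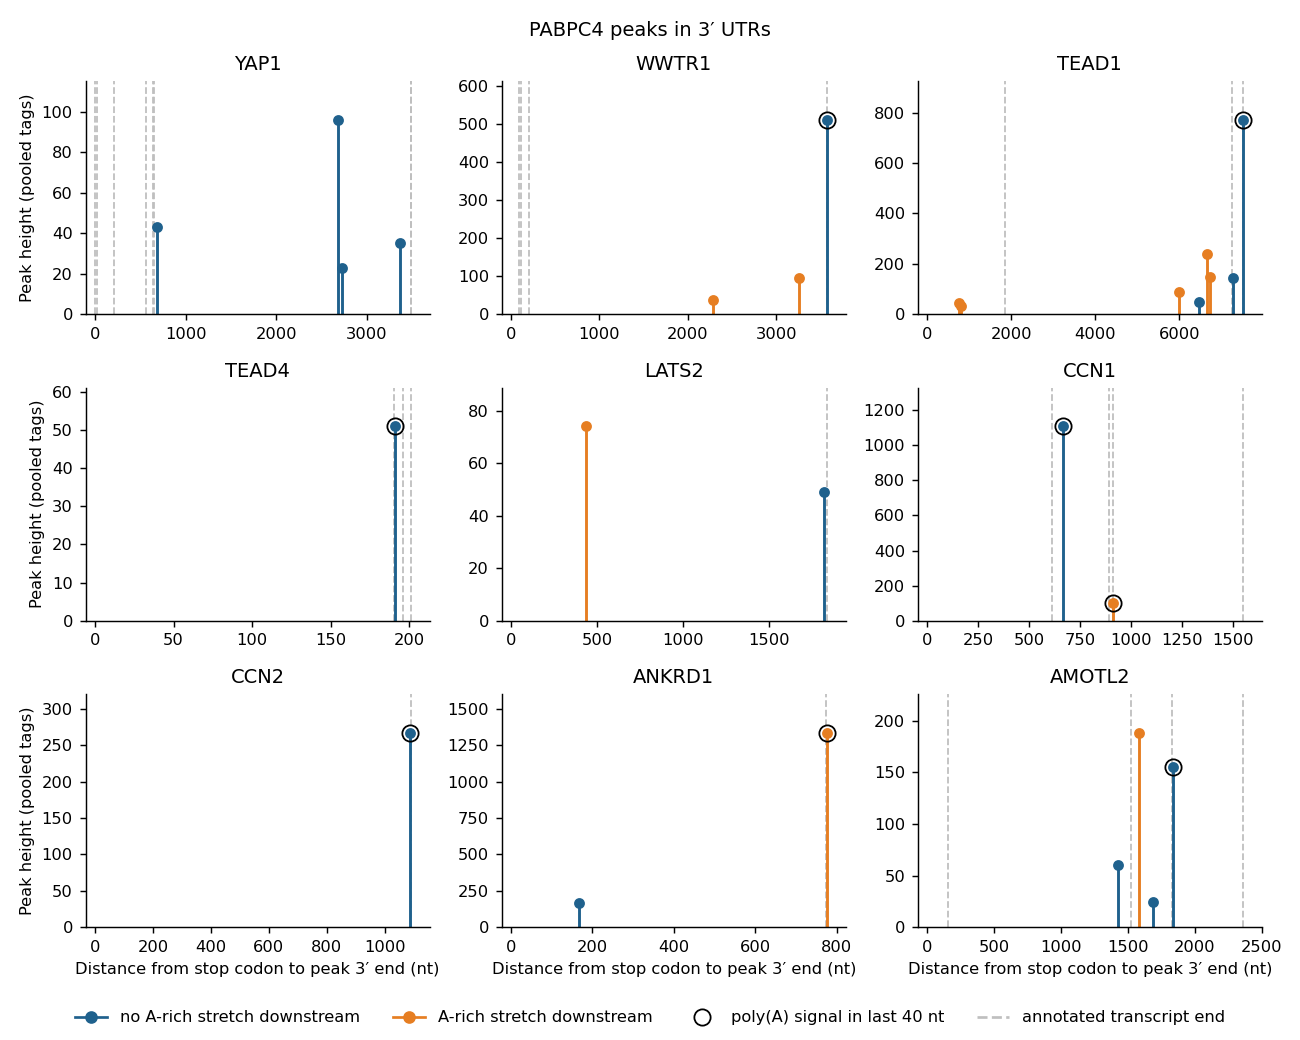
Height in pooled tags (vertical axis, from 0, with its own scale for each gene) of each PABPC4 3′ UTR peak against the distance of its 3′ end from the stop codon in nt. WWTR1, TEAD1, TEAD4, CCN2 and ANKRD1 have their tallest peak at the last annotated end or within 10 nt of it, while the 4 YAP1 peaks carry no poly(A) signal in their last 40 nt.

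The position of the tallest peak differed between genes. In WWTR1 the most distal of 3 peaks, at chr3:149517236-149517315, ended 1 nt before the annotated end and held 79.3% of the 644 tags summed over its 3′ UTR peaks. The peaks of 95 and 38 tags upstream of it both preceded an A-rich stretch. In TEAD1 the most distal of 8 peaks, at chr11:12944647-12944739, ended 2 nt past the annotated end and held 50.9% of 1515 tags. Of the other 7, the tallest was 240 tags at chr11:12943798-12943891, and 5 of the 8 preceded an A-rich stretch. A further TEAD1 peak of 143 tags ended 17 nt past another annotated end. ANKRD1 had 89% of its 1500 tags at the distal peak, and its A-rich stretch lies past the annotated end of the gene. The other ANKRD1 3′ UTR peak had 165 tags.

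In CCN1 the order was the other way round. The peak of 1108 tags at chr1:85583546-85583706 ended 244 nt before the end of the main transcript and 53 nt past an annotated end of another, and it carried AATAAA. The distal peak at chr1:85583877-85583949 ended 1 nt before the end of the main transcript, also carried AATAAA, and had 99 tags, or 8.2% of the sum. It preceded an A-rich stretch, and the peak of 1108 tags did not. CCN1 was the only one of the 10 genes with a poly(A) signal in more than 1 of its 3′ UTR peaks. In AMOTL2 the most distal peak, at chr3:134355874-134355947, ended 527 nt before the end of the main transcript and 3 nt past an annotated end, and held 36.3% of 427 tags. The tallest AMOTL2 peak, 188 tags at chr3:134356122-134356176, had no poly(A) signal in its last 40 nt and preceded an A-rich stretch. All 4 AMOTL2 peaks also lie within RPL39P5, annotated on the same strand, so that their tags cannot be assigned to 1 gene with certainty.

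LATS2 had 2 peaks. The one of 74 tags at chr13:20974438-20974491 lay 1402 nt before the annotated end, directly upstream of the A run shown above, and the one of 49 tags at chr13:20973051-20973098 ended 15 nt before the end and had no poly(A) signal in its last 40 nt. TEAD4 had a single peak of 51 tags at chr12:3040570-3040666, 1 nt past an annotated end, in a 3′ UTR of 201 nt. YAP1 was the gene whose 3′ UTR peaks neither had a poly(A) signal in their last 40 nt nor ended within 25 nt of an annotated end. Its peaks had 43, 96, 23 and 35 tags in 5′ to 3′ order, and none preceded an A-rich stretch. With a window of 100 nt, the YAP1 peak of 23 tags did have a poly(A) signal. The tallest, at chr11:102232569-102232615, ended 809 nt before the end of the main transcript. The most distal, of 35 tags, ended 125 nt before it, and that of 43 tags ended 27 nt past another annotated end, just outside the limit of 25 nt. The 2 most T-rich of these peaks, with 48.94% and 45.83% T, each contained UUUUU.

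Over the 27 3′ UTR peaks, a poly(A) signal was present in the last 40 nt of 8, or 29.6% (15.9 to 48.5%), against 48.6% of 3′ UTR peaks in the list. An annotated end lay within 25 nt of 9, or 33.3%, against 46.6%. An A-rich stretch followed 11, or 40.7% (24.5 to 59.3%), against 31.9%. The peaks share genes, so they are not independent, and these shares are given as a description. The median height was 95 tags, against 45 in the list.

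**Figure D4:**
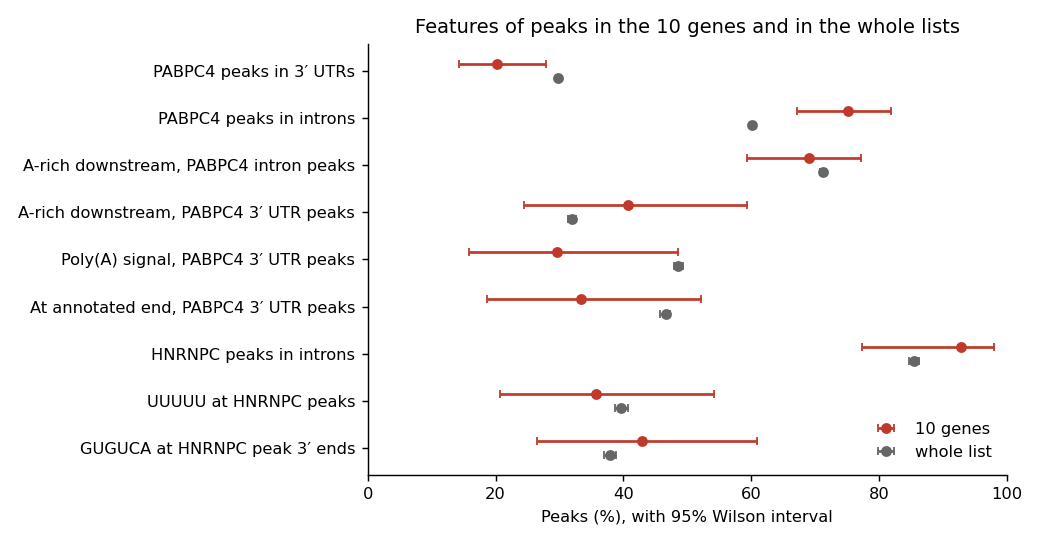
Share of peaks (%) with each property in the 10 genes (red) and in the whole lists (grey), with 95% Wilson intervals. The intron share of PABPC4 peaks is 75.2% in the 10 genes and 60.2% in the list, while the shares of A-rich intron peaks, 69% and 71.2%, lie close together.

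The 100 PABPC4 intron peaks lay in 7 of the 10 genes, with 28 in WWTR1, 26 in TEAD1, 25 in YAP1, 10 in LATS1, 5 in LATS2, 4 in TEAD4 and 2 in ANKRD1. An A-rich stretch followed 69 of them, or 69% (59.4 to 77.2%), against 71.2% of intron peaks in the list. By gene the number was 22 of 28 in WWTR1, 17 of 26 in TEAD1, 18 of 25 in YAP1, 4 of 10 in LATS1, 3 of 5 in LATS2, 3 of 4 in TEAD4 and 2 of 2 in ANKRD1. A poly(A) signal lay in the last 40 nt of 6 peaks, or 6%, against 6.4% in the list, and these were 4 in WWTR1, 1 in TEAD1 and 1 in LATS1. All 6 also preceded an A-rich stretch, and no intron peak of these genes ended within 25 nt of an annotated transcript end. A WWTR1 intron peak of 22 tags at chr3:149734975-149735018 lay at -76.97 kb from the start of the main transcript. It was within the annotated gene but upstream of that transcript.

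The tallest intron peak of TEAD1 had 183 tags in intron 9 at chr11:12883868-12883950, that of WWTR1 167 tags in intron 2 at chr3:149628757-149628798, and that of YAP1 151 tags in intron 3 at chr11:102165077-102165123. The TEAD1 and WWTR1 peaks preceded an A-rich stretch, and the YAP1 peak preceded none within 50 nt. The next YAP1 peak downstream, of 41 tags at chr11:102165163-102165193, did precede one. TEAD4 had an intron peak of 131 tags at chr12:2980687-2980732, taller than its 3′ UTR peak of 51 tags. In YAP1, too, the tallest intron peak stood above the tallest 3′ UTR peak of 96 tags. The tallest intron peaks of LATS2, LATS1 and ANKRD1 had 67, 62 and 57 tags. Intron peaks had a median of 44 tags in the 10 genes and 35 tags in the list.

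LATS1 differed from LATS2, the other kinase, in both lists. It had no HNRNPC peak and no PABPC4 3′ UTR peak, and its 11 PABPC4 peaks were 10 in introns, of 10 to 62 tags, and 1 of 62 tags in coding sequence at chr6:149683322-149683369. With 1 pooled list per protein, this difference between the genes was not tested, and the expression of LATS1 was not analysed here.

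A few PABPC4 peaks lay in other exons. In YAP1 a peak of 143 tags at chr11:102110428-102110500 covered the transcription start, beginning 19 nt before it, and a peak of 75 tags lay in coding sequence. Both preceded an A-rich stretch. ANKRD1 had coding-sequence peaks of 379 tags, before an A-rich stretch, and 276 tags, without one. Neither had a poly(A) signal in its last 40 nt. These 4 peaks were named after their values were seen.

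**Figure D5:**
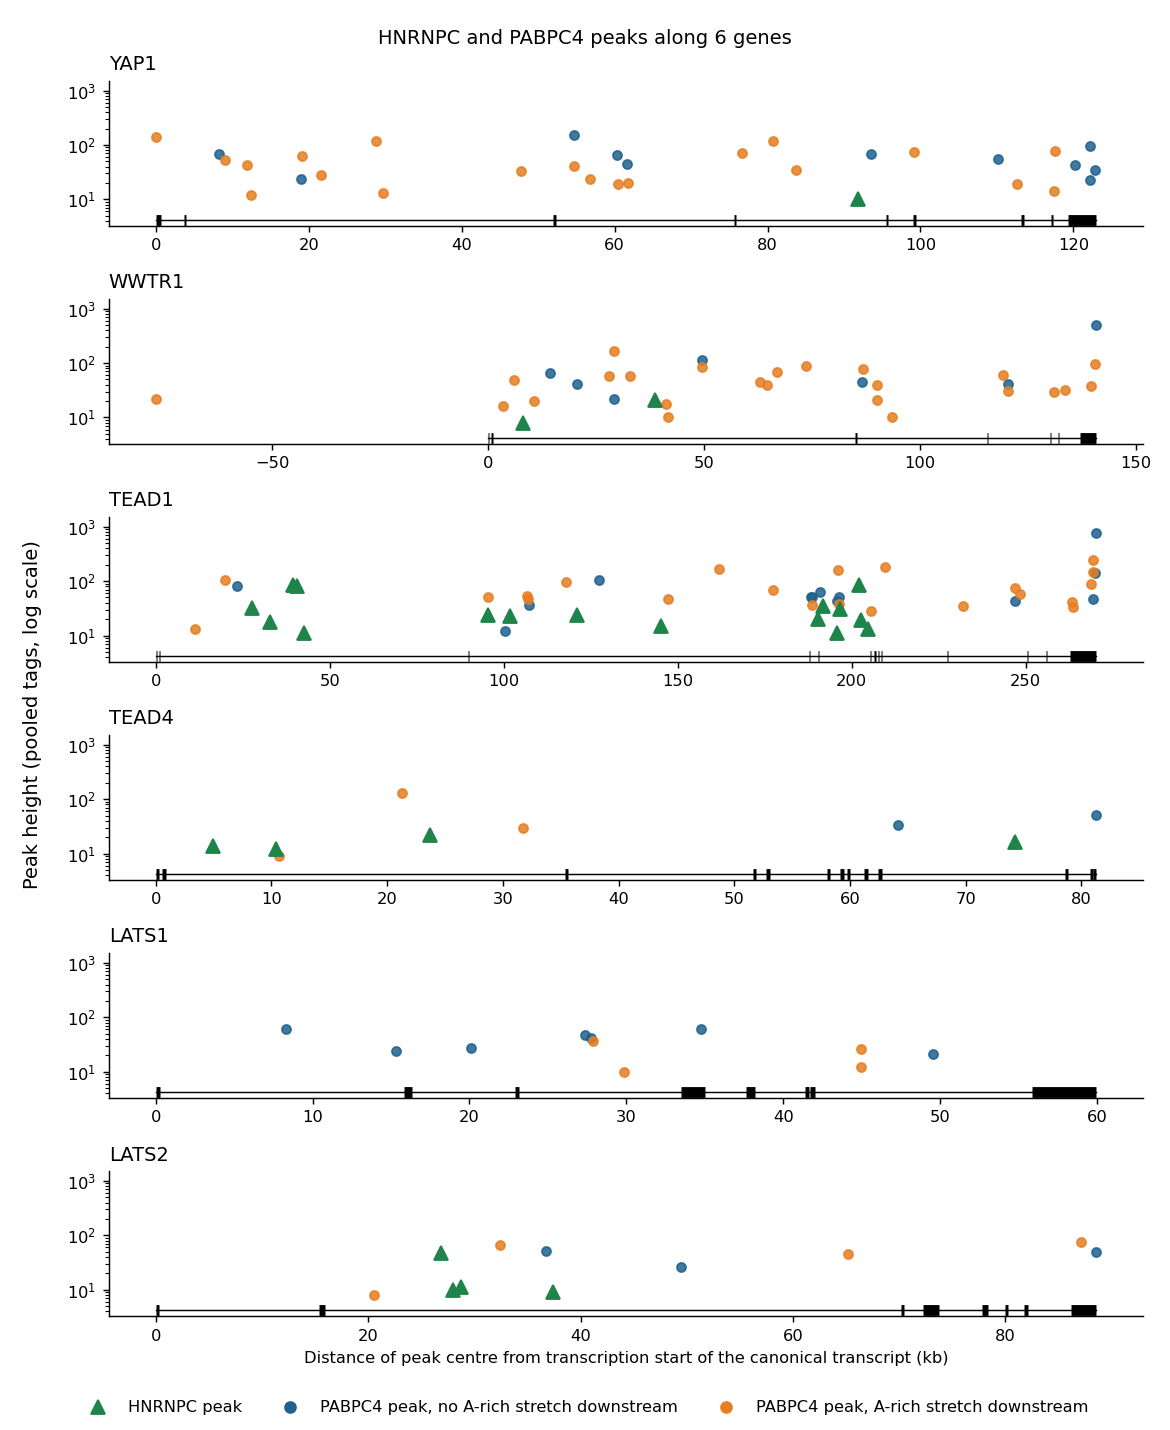
Peak height in pooled tags (log scale) against the distance of the peak centre from the transcription start of the main transcript in kb, for the 6 co-activator, TEAD and LATS genes, with exons drawn as black boxes. HNRNPC peaks (triangles) of TEAD1 lie in introns 2 to 5, while PABPC4 peaks (circles) run along the whole gene and are tallest at its 3′ end.

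The peaks of both proteins were then compared by position. For the 28 HNRNPC peaks the nearest PABPC4 peak of the same gene was at a median distance of 2630 nt and at most 18997 nt. Within 1000 nt there were 8 such pairs, 6 of them in TEAD1. In 1 case the peaks overlapped, at chr11:12870101-12870266 in TEAD1, where the HNRNPC peak had 11 tags and the PABPC4 peak 43 tags. The deposited peak-calling p-value of this HNRNPC peak was 0.0262, so no overlap stayed at a limit of 0.001. Another TEAD1 HNRNPC peak, of 24 tags at chr11:12769762-12769865, ended 32 nt before a PABPC4 peak of 51 tags. No random placement was made, so these distances are a description that follows in part from the number of PABPC4 peaks in each gene.

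To place the 10 genes beside the rest of the pathway, 37 other genes from a fixed list were counted. HNRNPC peaks were present in 24 of 37, or 64.9%, against 19.0% of all protein-coding genes. PABPC4 3′ UTR peaks were present in 34 of 37, or 91.9%, against 48.8%. The 37 genes ran from 2.406 kb in FJX1 to 729.3 kb in RBMS3, and the median protein-coding gene was 24.1 kb long. Neither length nor expression was taken into account, so their part in these shares was not tested. The HNRNPC share was 13 of 17 among upstream regulators, 1 of 4 among nuclear partners and 10 of 16 among further targets. Unlike the 10 genes, 4 of these had an HNRNPC peak in the 3′ UTR, which 1.98% of all protein-coding genes had. They were STK4, an upstream kinase, with 39 tags, MOB1A, a co-activator of the LATS kinases, with 10 tags, AXL, a receptor tyrosine kinase, with 22 tags, and F3, which encodes tissue factor, with peaks of 51 and 22 tags. The difference from 0 of 10 was not tested. The F3 peaks were at chr1:94529937-94530054 and chr1:94529728-94529895, on the minus strand.

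The largest numbers of HNRNPC peaks among the 37 were 13 in ASAP1 and 10 in FRMD6, followed by 7 each in STK3, VGLL4 and AXL, all below the 16 of TEAD1. Per 100 kb the order differed, with 31.8 in F3, 16.5 in AXL, 8.79 in AJUBA and 7.59 in MOB1A, all above the 5.92 of TEAD1. These values rest on few peaks in shorter genes. F3 had 4 peaks in 12.59 kb, AXL 7 in 42.54 kb, AJUBA 1 in 11.38 kb and MOB1A 2 in 26.35 kb. AJUBA was named after its value was seen. The tallest PABPC4 3′ UTR peaks had 362 tags in PTPN14 and 235 in WWC2 among the upstream regulators, 219 in VGLL4 and 145 in TEAD2 among the nuclear partners, and 3085 in NT5E and 1041 in AXL among the targets. The further targets ranged widely, down to 67 tags in GADD45A (47.1 percentile), 9 in NUAK2 (4.34) and 7 in FOXF2 (2.36), and DOCK5 had no PABPC4 3′ UTR peak. The last 4 were named after their values were seen.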

How the data were processed

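Per the labels and the methods, the authors collapsed HNRNPC reads by molecular identifier, extracted the identifiers (UMI-tools), trimmed reads (cutadapt), aligned them with BWA 0.7.17 to hg38, and removed duplicates and called peaks by valley seeking with the CLIP Tool Kit. The steps for PABPC4 were not given separately. The list names gave HITS-CLIP for HNRNPC where the labels gave irCLIP. The deposited signal of a peak is its height in unique tags, pooled over 2 samples and not normalized, so depth is unknown. The deposited gene IDs and p-values were kept, with p-values up to 0.1 for HNRNPC and 0.05 for PABPC4.

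Peaks were assigned by their centre and strand to GENCODE 44 features in the order 3′ UTR, coding sequence, 5′ UTR, non-coding exon and intron. Peaks per 100 kb were taken over the span of the protein-coding transcripts. Motifs were searched on the transcript strand only. Python 3.11.15, pandas 2.3.3 and pysam 0.24.0 were used. Feature assignment and the search for A-rich stretches were tested on simulated data, and the other motif searches were not. All 10 genes were named. Other pathway genes were named for a 3′ UTR HNRNPC peak, the most HNRNPC peaks or the tallest PABPC4 3′ UTR peaks. The members and lists were chosen with earlier results of these data known. Peak limits, feature rules, motif windows and gene sets were varied.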

Additional observations from a re-analysis of the deposited data

How the results depend on the processing

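Of 57 recalculations over 18 results, 43 stayed within the counting interval or within 1.5 times the main count, and 14 moved. No paired analysis was possible because each list merges its samples, and for the same reason no replicate could be left out. With 6 A in a row alone as the definition, the A-rich share of intron peaks was 56%. HNRNPC peaks with a U run were 64.3% for UUUU (60.9% in the whole list) and 10.7% for UUUUU inside the peak (13.3%). Leaving out A-rich PABPC4 peaks raised the distal share of 3′ UTR height to 64.9% in AMOTL2, 80.2% in TEAD1 and 100% in WWTR1, LATS2, ANKRD1 and CCN1. In each gene at 100% only a single 3′ UTR peak stayed, so that share was fixed by construction and says nothing about distal use. In ANKRD1 and CCN1 the peak left out was the distal one itself. Of alternatives chosen after seeing the data, the HNRNPC peaks were 16 without GUGUCA peaks and 12 without TEAD1. PABPC4 peaks numbered 50 without A-rich peaks, with a 3′ UTR share of 32%, and the share without YAP1, WWTR1 and TEAD1 was 33.3%. At this number of peaks and without replicates, differences between genes rest on single pooled lists.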
